A study of Mus musculus with 4 samples.

Results

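The interferon-inducible GTPases described here are 5 guanylate-binding proteins, Gbp2, Gbp3, Gbp4, Gbp5 and Gbp7, and 5 immunity-related GTPases, Irgm1, Irgm2, Igtp, Iigp1 and Ifi47. They were taken by symbol from the 27998 genes of the deposited single-cell matrices, and all 10 were found in both. The genes were chosen by their levels in old and young mice and in cells with and without a transcript of the lncRNA AW112010, so those contrasts are described below without a test. The cells were Ly6C-high classical monocytes sorted from the bone marrow of wild-type C57BL/6 mice as Ly6G-CD11b+CD115+Ly6Chi cells. The male mice were 14 weeks (young) or 27 months (old) of age and the female mice 15 weeks or 26.5 months, with 5 mice per age and sex and no treatment in any group. The mice of 1 sex were marked with hashtag antibodies, pooled and run as 1 library, so sex cannot be told apart from the library and the experiment.

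Guanylate-binding proteins are large GTPases that gather on membranes around intracellular bacteria and parasites and take part in inflammasome activation. Immunity-related GTPases are smaller relatives that act on pathogen vacuoles, and the members Irgm1, Irgm2 and Igtp are known as regulators that keep effectors such as Iigp1 from loading onto the membranes of the cell itself. Interferon-gamma binds the receptor Ifngr1/Ifngr2, the kinases Jak1 and Jak2 pass the signal on, and the response acts through GAS elements in promoters and, by way of factors such as Irf1, through ISRE elements. Bone marrow monocytes carry the receptor and raise these genes when they meet the cytokine.

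The genes lie in a few clusters of the mouse genome (GRCm38, GENCODE vM21 annotation). Gbp5 (ENSMUSG00000105504, chr3:142493978-142522344), Gbp7 (ENSMUSG00000040253, chr3:142530342-142550149), Gbp3 (ENSMUSG00000028268, chr3:142560026-142573209) and Gbp2 (ENSMUSG00000028270, chr3:142620602-142638008) follow each other on the plus strand. Gbp4 (ENSMUSG00000079363, chr5:105115767-105139586) is on the minus strand. Irgm1 (ENSMUSG00000046879, chr11:48861968-48871683, minus strand), Ifi47 (ENSMUSG00000078920, chr11:49076587-49096974), Igtp (ENSMUSG00000078853, chr11:58199556-58207591) and Irgm2 (ENSMUSG00000069874, chr11:58199618-58222782) share chromosome 11, and Iigp1 (ENSMUSG00000054072) lies apart from them. The gene models of Igtp and Irgm2 overlap on the plus strand, and the guanylate-binding proteins and the Iigp1 relatives include near-identical copies, so reads may be divided unevenly between these genes and their single values are uncertain.

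The 250 bases before the annotated start of each gene were searched for a GAS element, TTCNNNGAA, and for the ISRE core GAAANNGAAA on either strand (TTTCNNTTTC on the other). RefSeq windows (GRCm38.p6) were at hand for 8 members, all but Gbp4 and Iigp1. Gbp3 had 2 windows, 1 with ISRE matches and 1 with no match, and was counted as having an ISRE. An ISRE match was present for 7 of the 8, against 2.98% of the 32851 windows of all genes, and a GAS match for 4 (Gbp5, Gbp7, Igtp and Irgm2), against 7.02%. These 4 had both, as had 0.332% of all windows, and Ifi47 had neither. In no window did a GAS match overlap an ISRE match. Windows for 5 members are shown 5′ to 3′ on the strand of the gene, each ending at the base before the start, with the matches in capitals, because they show both arrangements found among the members: an ISRE alone (Gbp2, Irgm1) and an ISRE with a GAS (Gbp5, Igtp, Irgm2).
Gbp2: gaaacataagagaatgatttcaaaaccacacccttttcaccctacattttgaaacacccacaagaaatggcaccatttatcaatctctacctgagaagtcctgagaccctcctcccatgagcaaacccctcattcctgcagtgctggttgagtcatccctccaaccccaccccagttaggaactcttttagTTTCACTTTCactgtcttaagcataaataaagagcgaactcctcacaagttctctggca
Irgm1: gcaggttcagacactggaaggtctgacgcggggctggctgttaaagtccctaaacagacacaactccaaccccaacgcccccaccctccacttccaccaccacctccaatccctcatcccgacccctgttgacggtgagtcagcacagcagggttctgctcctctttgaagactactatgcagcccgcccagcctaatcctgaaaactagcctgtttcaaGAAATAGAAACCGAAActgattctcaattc
Gbp5: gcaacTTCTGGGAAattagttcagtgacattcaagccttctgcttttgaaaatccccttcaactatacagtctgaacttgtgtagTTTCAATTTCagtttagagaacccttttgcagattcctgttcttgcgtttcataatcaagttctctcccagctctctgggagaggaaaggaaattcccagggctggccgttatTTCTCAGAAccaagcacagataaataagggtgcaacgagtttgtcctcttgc
Igtp: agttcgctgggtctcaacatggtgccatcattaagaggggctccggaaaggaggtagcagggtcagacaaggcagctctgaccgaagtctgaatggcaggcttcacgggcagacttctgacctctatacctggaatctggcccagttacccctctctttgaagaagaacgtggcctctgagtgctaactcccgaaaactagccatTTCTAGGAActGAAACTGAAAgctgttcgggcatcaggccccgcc
Irgm2: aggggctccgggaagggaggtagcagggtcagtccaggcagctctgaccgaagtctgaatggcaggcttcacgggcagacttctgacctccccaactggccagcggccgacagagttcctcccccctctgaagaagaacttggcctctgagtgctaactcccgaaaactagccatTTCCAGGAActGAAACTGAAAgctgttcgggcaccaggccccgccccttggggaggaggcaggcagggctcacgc
The windows are chr3:142620413-142620662 for Gbp2, chr11:48871421-48871670 for Irgm1 on the minus strand, chr3:142496684-142496933 for Gbp5, chr11:58199306-58199555 for Igtp and chr11:58214727-58214976 for Irgm2. They end at RefSeq starts, which can differ from the GENCODE positions given above. The windows of Irgm1, Gbp5 and Irgm2 lie inside those gene models, and that of Gbp2 reaches into its model. In Gbp2 the ISRE began 59 bases before the start, and in Irgm1 there were overlapping ISRE matches beginning 30 and 24 bases before it. In Igtp the GAS began 45 and the ISRE 34 bases before the start, and in Irgm2 they began 75 and 64 bases before it. Gbp5 had GAS matches 245 and 52 bases and an ISRE 165 bases before its start. A match in a window is a description of its letters and was not tested for binding.

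The female library held 7624 cells assigned to a mouse, with 2861770 to 21921971 UMIs per mouse, and the male library 1226 cells, with 330586 to 1108320 UMIs per mouse. No barcode occurred in both libraries. The monocyte markers Ly6c2, Csf1r, Ccr2 and Fn1 summed to 4344 to 4778 CPM (UMIs per 1000000 UMIs of the cells of the mouse) in the female and 3730 to 4694 CPM in the male mice. T and NK cell markers summed to 55.3 to 109 CPM in old and 68.9 to 79.7 CPM in young females. Most of this was Nkg7 (64.5 CPM over the pool). The T cell genes Cd3d, Cd3g and Cd3e were at 4.07, 4.06 and 2.13 CPM, with UMIs in every female. Klrb1c and Ncr1 were at 0.785 and 0.0906 CPM. In males the markers summed to 40.5 to 129 CPM in old and 14.8 to 57.1 CPM in young mice. There Cd3d, Cd3e and Cd3g had 2, 1 and 1 UMIs over the pool and Ncr1 was at 0. Neutrophil markers (Camp, Ngp, Ltf, Ly6g and Retnlg) summed to 8.71 to 209 CPM in old and 119 to 1131 CPM in young females, and to 17.1 to 4357 CPM in old and 11.5 to 3897 CPM in young males. Basophil markers reached 545 CPM in 1 old and 467 CPM in 1 young male and at most 3.12 CPM in females, where Prss34 was at 0.

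Of the 20 mice, 1 old mouse in each pool stood apart in the members before any comparison. Old female 1 was the highest of the 10 females for all 10 members, and old male 2 was the highest of the 10 males for 8 of them, with Gbp5 and Irgm1 higher in old male 5. Summed over the members, old female 1 held 688 CPM and the other old females 363, 255, 295 and 285 CPM, while the young females held 219.6, 230.2, 276, 256 and 228 CPM. Old male 2 held 718 CPM, the other old males 132, 293, 119.8 and 372 CPM, and the young males 168, 176, 126, 136 and 165 CPM. The old females thus spread from within the young range to well above it, and the old males from just below the young range (old male 4) to well above it. The mean was 377 ± 178 CPM in old and 242 ± 23.5 CPM in young females (SD, n = 5 each), and 300 ± 45.8 CPM without old female 1 (n = 4). In males it was 327 ± 243 CPM in old and 154 ± 22.0 CPM in young mice, and 229 ± 124 CPM without old male 2 (n = 4). In old female 1 the T and NK cell markers (75.8 CPM), neutrophil markers (8.96 CPM) and basophil markers (0.968 CPM) lay within the range of the other old females. In old male 2 they were at 62.4, 1643 and 98.9 CPM, within the range of the other old males. The macrophage markers (C1qa, C1qb, C1qc, Vcam1 and Adgre4) had the same order as the members in the old males but not in the young males. They summed to 23.5, 73.0, 46.1, 19.6 and 57.5 CPM in old males 1 to 5, from 9 to 48 UMIs per mouse. Old males 2, 5 and 3 were thus the highest for these markers as for the members. In young males 1 to 5 the markers summed to 28.4, 11.4, 33.7, 13.1 and 18.1 CPM. Young male 2, the highest young male for the members, was the lowest for the markers, and young male 3 the reverse. The means were 43.9 ± 22.6 CPM in old and 20.9 ± 9.73 CPM in young males, with Adgre4 and C1qb giving most of the UMIs (16.9 and 9.13 CPM over the pool) and C1qa at 0 in 8 of the 10 mice. In females these markers summed to 21.4 CPM in old female 1, 17.3 to 42.5 CPM in the other old and 15.2 to 23.4 CPM in the young mice. Their part in the differences between mice was not tested.

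**Figure D1:**
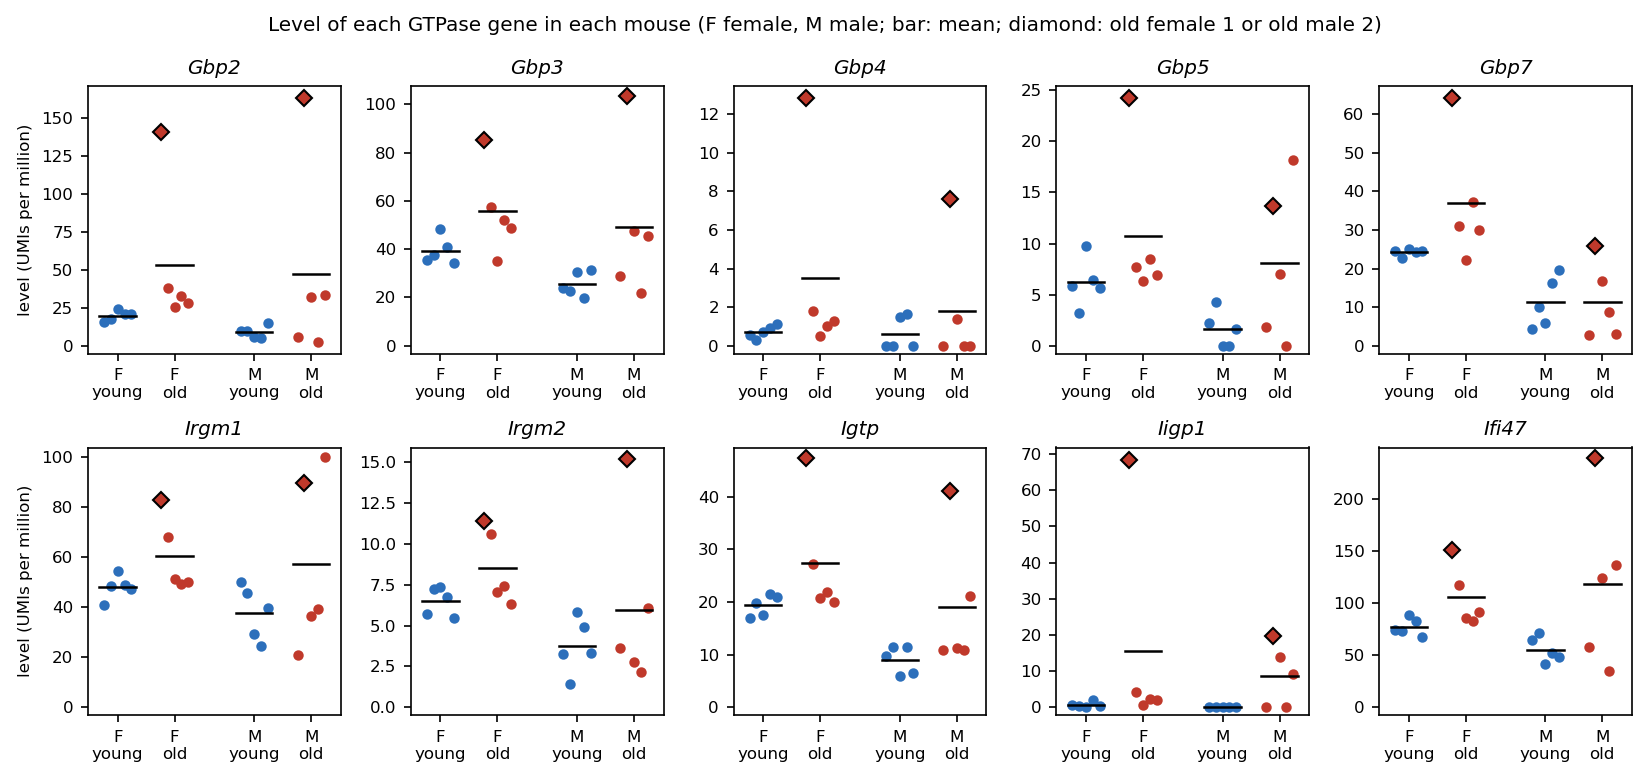
Level of each member in each mouse (vertical axis, CPM), with 1 panel per gene, 1 point per mouse and a bar for the mean of each age and sex (blue young, red old, n = 5). Diamonds mark old female 1 and old male 2: old female 1 lies above the other 9 females for every member, and old male 2 above the other 9 males for 8 of 10.

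Among the guanylate-binding proteins, Gbp2, which coats vacuoles of bacteria and parasites, was the member whose female age groups did not overlap. The old females held 141, 38.2, 25.4, 32.6 and 28.0 CPM and the young females 15.5, 17.4, 24.1, 20.9 and 20.7 CPM. Every old female was above every young female, as for 3.45% of the 10386 genes tested, and the log2 fold change was 1.42 (SE 0.43), or 0.65 without old female 1. In males Gbp2 was at 5.41, 163, 32.1, 2.18 and 33.3 CPM in old and 9.83, 9.96, 5.86, 4.91 and 14.8 CPM in young mice. Old males 2, 3 and 5 thus lay above every young male and old male 4 below all of them. These levels rested on 1 to 107 UMIs per male mouse, and Gbp2 did not pass the filter on low counts in males.

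Gbp3 followed the same order with a smaller step. It ranged from 35.3 to 85.1 CPM in old and from 34.5 to 48.6 CPM in young females, with a log2 fold change of 0.51 (SE 0.18) and 0.31 without old female 1. In males it ranged from 21.8 to 103 CPM in old and from 19.6 to 31.3 CPM in young mice, with a log2 fold change of 0.94 (SE 0.34) and 0.44 without old male 2. The groups overlapped in both sexes, 4 of 5 old females and 3 of 5 old males being above every young mouse.

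Gbp5, which promotes assembly of the NLRP3 inflammasome, and Gbp7 were both highest in old female 1. Gbp5 was at 24.2 CPM in old female 1, 6.32 to 8.44 CPM in the other old females and 3.24 to 9.78 CPM in the young ones, so without old female 1 the old values lay inside the young range. Its log2 fold change was 0.82 (SE 0.36), and 0.31 without that mouse. Gbp7 was at 64.3 CPM in old female 1, 22.3 to 37.3 CPM in the other old and 22.8 to 25.2 CPM in the young females, with a log2 fold change of 0.60 (SE 0.22) and 0.32 without old female 1. For Gbp7 old females 2, 4 and 5 (31.0, 37.3 and 29.9 CPM) also lay above every young female. In males Gbp5 had 0 to 9 UMIs in the old and 0 to 3 in the young mice, and Gbp7 ranged from 2.71 to 25.9 CPM in old and from 4.37 to 19.8 CPM in young mice.

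Gbp4 had few UMIs outside 1 female mouse. Old female 1 held 106 UMIs (12.8 CPM), the other old females 12, 7, 15 and 12 UMIs (0.526 to 1.82 CPM) and the young females 4, 2, 2, 20 and 10 UMIs (0.308 to 1.14 CPM). The level in old female 1 was 10.97 times the mean of the other old females. In males old male 2 held 5 UMIs and every other mouse at most 1.

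Among the immunity-related GTPases, Irgm1, a regulatory member needed for control of several intracellular bacteria, was at 82.8, 68.1, 51.4, 49.2 and 50.1 CPM in old and at 40.9, 48.4, 54.5, 48.9 and 47.1 CPM in young females. Only old females 1 and 2 were above every young mouse, and the log2 fold change of 0.33 (SE 0.13) was 0.19 without old female 1. In males the old mice ranged from 20.8 to 99.8 CPM and the young mice from 24.5 to 50.2 CPM, with a log2 fold change of 0.41 (SE 0.36) and 0.07 without old male 2. Irgm2 ranged from 6.31 to 11.4 CPM in old and from 5.46 to 7.34 CPM in young females, with a log2 fold change of 0.39 (SE 0.17), or 0.26 without old female 1, and had 1 to 10 UMIs per mouse in males. Igtp, the third regulatory member, ranged from 20.01 to 47.3 CPM in old and from 16.98 to 21.6 CPM in young females, with a log2 fold change of 0.45 (SE 0.21) and 0.16 without old female 1. In males Igtp was at 10.8, 41.1, 11.2, 10.9 and 21.2 CPM in old and 9.83, 11.4, 5.86, 11.5 and 6.59 CPM in young mice, old males 2 and 5 being above every young male.

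Ifi47 belongs with the effector immunity-related GTPases. The old females held 151, 117, 85.7, 82.5 and 91.4 CPM and the young females 73.6, 73.1, 88.8, 82.9 and 67.5 CPM. Old females 3 and 4 were inside the young range and the other 3 above it, and the log2 fold change was 0.46 (SE 0.14), or 0.29 without old female 1. The old males held 57.7, 239, 124, 34.9 and 136 CPM and the young males 64.4, 71.1, 41.0, 52.4 and 47.7 CPM. Old males 2, 3 and 5 were above every young male and old male 4 was below all of them, with a log2 fold change of 1.07 (SE 0.36), or 0.59 without old male 2.

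Iigp1, an effector that is loaded onto parasite vacuoles, was at or near 0 in most mice and far higher in old female 1. In females the UMIs were 565, 28, 8, 34 and 19 in old and 5, 2, 0, 43 and 4 in young mice, which is 68.4, 4.24, 0.601, 2.33 and 2.07 CPM in old and at most 1.96 CPM in young mice. Old female 1 was 29.6 times the mean of the other old females. The log2 fold change with age was 3.76 (SE 1.28) with old female 1 and 1.01 without it. An Iigp1 UMI was present in 33.2% of the cells of old female 1, in 0.579% to 4.13% of the cells of the other old females and in 0% to 0.757% of the cells of the young females. All 10 females shared 1 suspension and library. The part of free RNA, of doublets and of cells given to the wrong mouse in these shares was not tested. In males old mice 2, 3 and 5 held 13, 10 and 3 UMIs and every other mouse 0. The 700 cells of the young males had no Iigp1 UMI, which allows a share of up to 0.429% of cells with an Iigp1 UMI, not of cells expressing the gene, and a level of up to 0.852 CPM over the group. Summed over the group, old males held 7.95 CPM, 9.33 times this upper limit, and 4.97 CPM without old male 2, 5.84 times it. The limit covers counting error in the young males only, and no error of the old males entered these ratios. The UMIs of old males 2, 3 and 5 lay in 9, 2 and 2 cells, so they were not independent counts.

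Over the 9 members that passed the filter on low counts in females, all 9 log2 fold changes were above 0 and their median was 0.51, against a median of -0.00 over all 10386 genes, and over the 3 that passed in males the median was 0.94, against 0.01 over all 5655 genes. These values chose the genes and carry no test. In the same fits edgeR called 2.4% of genes higher in old females and 0.0% (0 genes) higher in old males at an adjusted p under 0.05, with 624 male genes at an unadjusted p under 0.05 and 22 called by DESeq2. Every old male lay above every young male in 0.973% of the genes tested and in none of these 3 members. The interaction of sex and age called 2 of 8884 genes (0.0225%), Plaur, the urokinase receptor, and the histone gene Hist1h4i, and their names were read after their values.

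**Figure D2:**
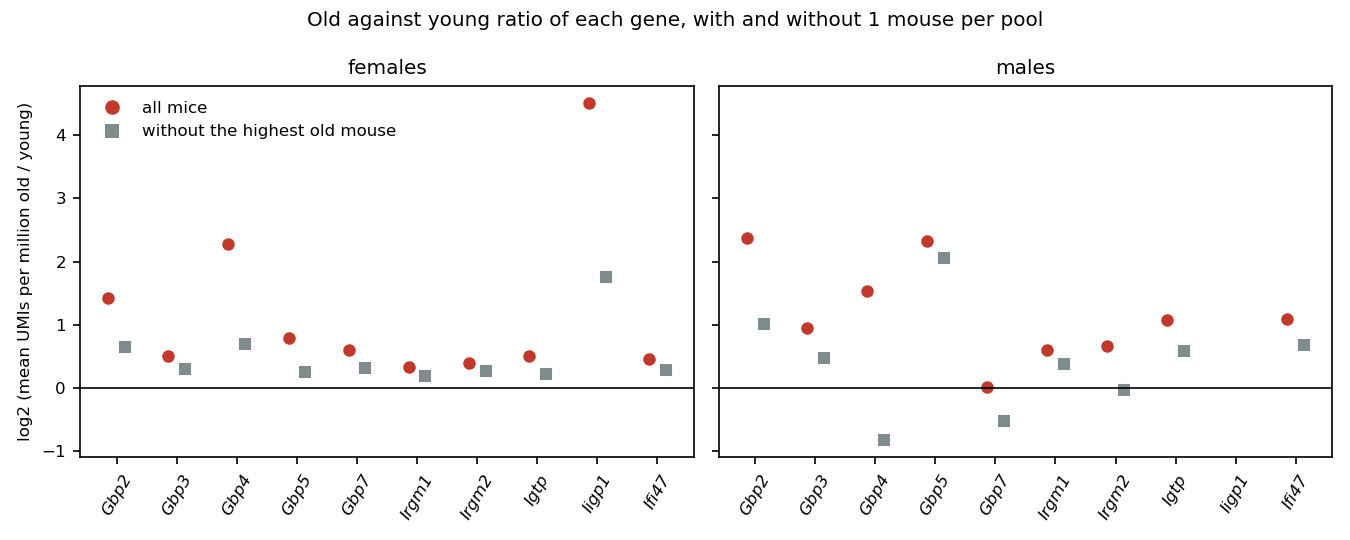
Log2 ratio of the mean CPM of old over young mice for each member (vertical axis), in females and in males, with red circles for all mice and grey squares without old female 1 or old male 2. In the female panel every square lies below its circle, at 1.76 against 4.51 for Iigp1 and at 0.27 against 0.40 for Irgm2. In the male panel the squares of Gbp4 (-0.83), Gbp7 (-0.53) and Irgm2 (-0.04) lie below 0 and the other squares above it. Iigp1 has no ratio in males because all young males were at 0.

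The difference between mice was present cell by cell. After each cell was thinned to 2000 UMIs, at least 1 member UMI was found in 67.8% of the cells of old female 1, in 36.4% to 49.0% of the cells of the other old females and in 34.4% to 38.0% of the cells of the young females. At least 3 different members were found in 17.7% of the cells of old female 1, in 2.90% to 6.21% of the cells of the other old and in 2.17% to 3.34% of the cells of the young females. In old male 2 at least 1 member was found in 64.8% of cells, against 17.02% to 40.7% in the other old and 20.2% to 24.4% in the young males. Before thinning, any member was found in 98.8% of the cells of old female 1, in 86.4% to 96.1% of the cells of the other old females and in 78.3% to 83.3% of the cells of young females. Cells with Gbp2 carried another member more often than cells without it in 10 of 10 female mice, with medians of 61.0% and 35.3% of cells, and the same held in 10 of 10 females for Gbp3, Gbp7, Irgm1, Igtp and Ifi47. For Gbp5 it held in 3 of the 4 females with enough cells, old female 3 being at 31.6% with and 35.2% without it, and for Irgm2 in 4 of 5, young female 4 being at 30.3% and 35.0%. In old female 1, the female mouse with enough Iigp1 cells for this comparison, 89.4% of thinned cells with Iigp1 carried another member, against 63.0% of those without.

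AW112010 (ENSMUSG00000075010, chr19:11047612-11055808, minus strand) is a long non-coding RNA of myeloid and lymphoid cells that regulates inflammatory cytokines and that can also be translated. It was at 367, 119.6, 111, 161 and 118 CPM in the old females and at 51.6, 51.0, 43.0, 58.5 and 50.7 CPM in the young ones. In males it was at 143, 967, 436, 85.0 and 363 CPM in old and at 74.3, 102, 58.6, 99.8 and 46.1 CPM in young mice. At least 1 UMI was found in 54.4% to 89.8% of cells of old and 30.2% to 36.1% of cells of young females, and in 39.3% to 87.1% of cells of old and 18.9% to 29.1% of cells of young males. The highest share in each pool was that of old female 1 and of old male 2.

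Within a mouse, the summed members were higher in cells with AW112010 than in cells without it in 9 of 10 females and in 9 of 10 males, young mouse 5 being the exception in each pool. The means were 328 ± 143 CPM with and 269 ± 80.4 CPM without AW112010 in females (SD, n = 10), and 285 ± 207 CPM with and 160.1 ± 56.6 CPM without in males. The members differed in how far they followed. Gbp2 was higher in cells with AW112010 by a log2 fold change of 0.82 (SE 0.08) in females, Gbp5 by 0.59 (SE 0.12), Gbp7 by 0.31 (SE 0.08), Ifi47 by 0.23 (SE 0.04) and Gbp3 by 0.17 (SE 0.05). Igtp was at 0.13 (SE 0.07), Irgm1 at 0.03 (SE 0.07) and Irgm2 at -0.14 (SE 0.17). The regulatory immunity-related GTPases thus had the 3 smallest differences of the 8 members in this fit, before the thinning described below. Igtp and Gbp3 differed by less than their SEs. In this fit 0.581% of the 9642 genes tested were called higher in cells with AW112010.

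Iigp1 and Gbp4 passed no filter in this contrast and are given as UMIs. In females 659 Iigp1 UMIs came from cells with AW112010 and 49 from cells without, of which 532 and 33 were from old female 1, where the levels were 72.1 and 37.1 CPM. Gbp4 had 174 UMIs in cells with and 16 in cells without AW112010 and was higher with it in 10 of 10 females. In males all 26 Iigp1 UMIs were in cells with AW112010. They lay in 9, 2 and 2 cells of old males 2, 3 and 5. In these mice 87.1%, 76.8% and 62.5% of all cells held AW112010, so most of the UMIs could fall in such cells without any link. Ifi47 was the only member to pass the filter in males, with a log2 fold change of 0.70 (SE 0.19), and edgeR called 0.0% (0 of 2964 genes, 139 at an unadjusted p under 0.05) higher in male cells with AW112010.

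Cells with AW112010 held more UMIs, as the class asks for at least 1 UMI: their median was higher than that of the cells without it in 9 of 10 females and 8 of 10 males, old female 1, old male 2 and old male 5 being the exceptions. With every cell thinned to 2000 UMIs and the classes drawn again, the female log2 fold changes were 1.49 for Gbp2, 0.78 for Gbp7, 0.74 for Igtp, 0.66 for Ifi47, 0.63 for Gbp3 and 0.57 for Irgm1, all larger than before thinning, and 609 genes were called in place of 70. The order of the members changed: after thinning Igtp lay above Ifi47 and Gbp3, Irgm1 stayed the lowest value given and Irgm2 had no value. Before thinning, the count of 70 genes became 489 without old female 1, 36 without old female 3 and 24 without young female 4.

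Age and AW112010 were also combined. Among cells without AW112010 the summed members were at 306 ± 103 CPM in old and 231 ± 20.9 CPM in young females, and among cells with it at 397 ± 182 CPM and 259 ± 32.01 CPM (SD, n = 5 each). The old females ranged from 233 to 480 CPM and the young ones from 211 to 266 CPM without AW112010, so the ranges overlapped in both classes. The log2 difference between the classes was 0.33 ± 0.16 in old and 0.16 ± 0.14 in young females, and 0.71 ± 0.59 in old and 0.57 ± 0.62 in young males. The old less young value of 0.14 in males turned to -0.30 after thinning, and to -0.07 without old male 2 and -0.02 without young male 5. The interaction of AW112010 class and age called 1 of 9642 genes in females (0.0104%), the cyclin Ccnd2, and 1 of 2964 in males (0.0337%), the neutrophil granule gene Lcn2.

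**Figure D3:**
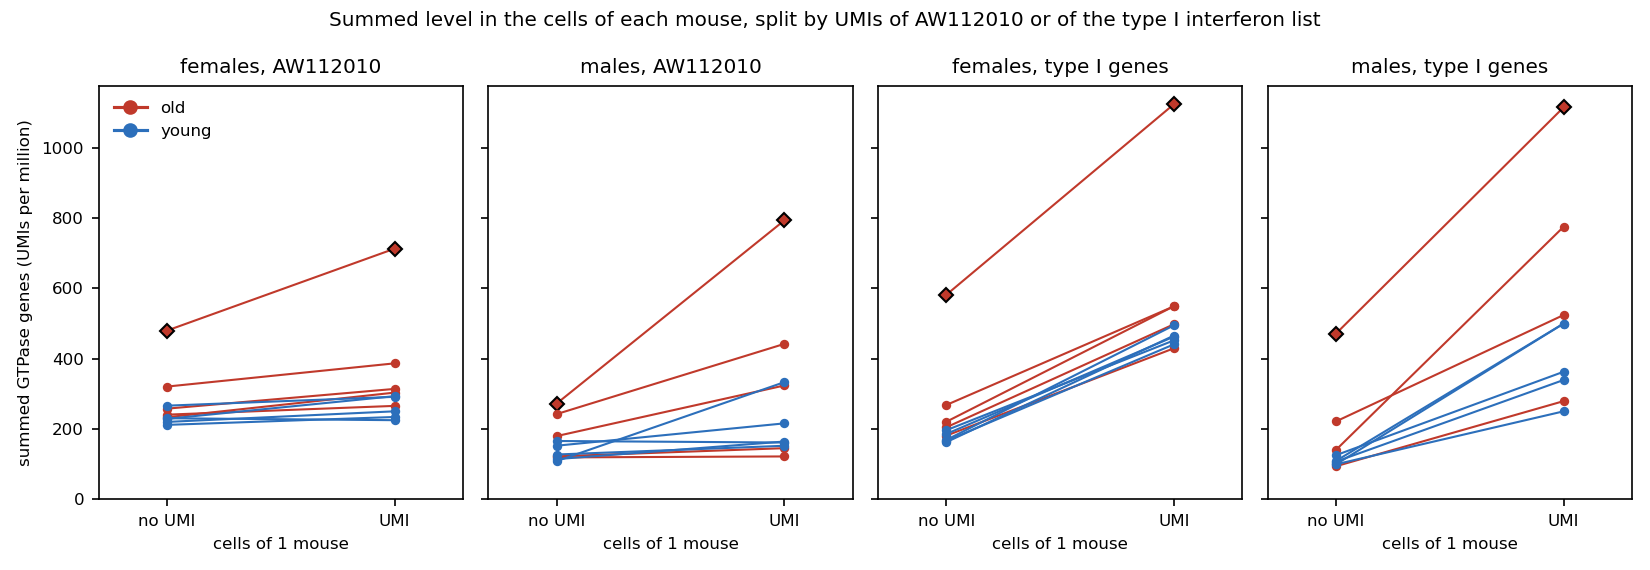
Summed members (CPM) in each mouse for cells with and without AW112010, and for cells with and without a type I interferon response UMI after thinning to 2000 UMIs, with 1 line per mouse joining its classes. The AW112010 lines rise in 9 of 10 mice of each pool and the type I lines in 10 of 10 females and 9 of 9 males.

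The female pool was also stained with DNA-tagged antibodies against 6 surface proteins, a readout that did not enter the choice of the genes. The cells had already been sorted on CD11b, CD115 and Ly6C, so the classes are ranges within the gate. In each mouse cells were ranked by the log count of 1 antibody less the mean log count of the 6 antibodies in that cell. A cell could thus rank high for 1 antibody because its other antibodies were low, so the 6 comparisons are not independent. The 20% of cells ranked highest were compared with the other cells, and edgeR was fitted over all genes with the mouse as a block. The integrin CD11b rises as marrow monocytes mature. All 8 members that passed the filter were higher in CD11b-high cells, as were 31.4% of the 9058 genes tested. Gbp2 rose by a log2 fold change of 1.15 (SE 0.09, edgeR adjusted p = 1.10e-11), Igtp by 0.93 (SE 0.09, adjusted p = 1.66e-09), Irgm2 by 0.91 (SE 0.15, adjusted p = 6.45e-06) and Gbp5 by 0.90 (SE 0.14, adjusted p = 1.91e-06). Ifi47 (0.71, SE 0.06), Irgm1 (0.67, SE 0.07), Gbp7 (0.54, SE 0.08) and Gbp3 (0.44, SE 0.07) rose too, with a median of 0.81 over the 8 members and 0.02 over all genes. The sum of the members was higher in CD11b-high cells of 10 of 10 mice, by 0.73 ± 0.13 on the log2 scale (SD, n = 10), with a median of 403 CPM against 241 CPM in the other cells. Of the members too low for the fit, Gbp4 was higher in CD11b-high cells of 7 of 10 mice (0.34 ± 0.94 on the log2 scale with a pseudocount of 1 CPM) and Iigp1 in 3 of 10 (-0.04 ± 0.92). CD11b-high cells held fewer UMIs (median 7586 against 11032 per cell) and more neutrophil marker UMIs (median 885 CPM against 9.46 CPM, ranging from 12.1 to 7561 CPM and from 7.48 to 11.2 CPM). After removal of the 9.28% to 14.2% of cells with any neutrophil marker UMI, the 8 members were still called higher. That fit called 5289 genes in either direction, so the call is not particular to the members. After thinning to 2000 UMIs the sum differed by 0.57.

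Surface Ly6C ran the other way. All 8 members that passed the filter fell in Ly6C-high cells, as did 16.1% of the 9572 genes tested. Irgm2 fell by 0.96 (SE 0.16, edgeR adjusted p = 1.55e-05), Gbp2 fell by 0.88 (SE 0.10, adjusted p = 2.14e-08) and Gbp5 fell by 0.74 (SE 0.14, adjusted p = 5.42e-05) on the log2 scale, and the sum was lower in 10 of 10 mice, with a difference of -0.47 ± 0.19. In cells high for CD115, the receptor for colony-stimulating factor 1 encoded by Csf1r, 7 of the 8 fell, as did 28.6% of the 9653 genes tested. Gbp2 fell by 1.001 (SE 0.12, adjusted p = 1.07e-07) and Irgm2 fell by 0.88 (SE 0.17, adjusted p = 8.73e-05), and Gbp3, at -0.17 (SE 0.07), missed the threshold with an adjusted p = 0.0516. The sum was lower in 9 of 10 mice, with a difference of -0.50 ± 0.31. The CD115 antibody gave few counts, with medians of 12 in the high cells and 3 in the others. Gbp4 and Iigp1, not fitted, were each higher in Ly6C-high cells of 2 of 10 mice, and in CD115-high cells of 1 and 0 of 10. Ly6C-high and CD115-high cells held more UMIs than the other cells (medians 14864 against 8902, and 15826 against 9018), and neutrophil markers were lower in both (medians 10.5 against 169 CPM, and 8.66 against 169.7 CPM). The part of depth and of these markers in the differences was not tested for Ly6C and CD115 beyond thinning, under which the sum differed by -0.67 for Ly6C and -0.55 for CD115.

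Cells with high surface MHC-II, the antigen-presenting molecule that interferon-gamma raises through Ciita, held more of 6 members, as did 6.07% of the 9394 genes tested. Gbp2 rose by 0.73 (SE 0.16, edgeR adjusted p = 0.00493), Gbp5 by 0.58 (SE 0.15, adjusted p = 0.0145), Igtp by 0.39 (SE 0.11, adjusted p = 0.0352), Irgm2 by 0.36 (SE 0.11, adjusted p = 0.0491), Ifi47 by 0.33 (SE 0.06, adjusted p = 0.00114) and Gbp7 by 0.27 (SE 0.07, adjusted p = 0.0142). Irgm1 was at 0.22 (adjusted p = 0.0821) and Gbp3 at 0.17 (adjusted p = 0.103). The 6 called members were each higher in 7 to 9 of 10 mice. The sum was higher in 9 of 10 mice, by 0.28 ± 0.26 on the log2 scale (SD, n = 10). Its difference was 0.27 to 0.55 in the old females and -0.24 to 0.31 in the young ones. Gbp4, too low for the fit, was higher in MHC-II-high cells of 10 of 10 mice, by 1.03 ± 0.41 on the log2 scale with a pseudocount of 1 CPM, and Iigp1 in 8 of 10, by 0.69 ± 0.77. T and NK cell markers were higher in these cells too (median 203 CPM, 101 to 248.6, against 39.0 CPM, 23.7 to 83.8). Without the 13.1% to 26.9% of cells with a T or NK cell marker UMI, 5 of the 8 members were called higher (Gbp2, Irgm1, Ifi47, Igtp and Irgm2), so Gbp5 and Gbp7 lost and Irgm1 gained the call. Over all genes 612 were called in either direction in place of 964. The share of genes called higher in that fit is not given, so its calls of members are a description. Most UMIs of this marker list were of Nkg7 (64.5 CPM over the pool), so the cells left out need not all be T or NK cells. The T cell genes Cd3d, Cd3g and Cd3e (4.07, 4.06 and 2.13 CPM) were found in every female too. How many of the cells left out were T or NK cells was not tested.

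High surface CD11c and Flt3, markers of dendritic cells and their progenitors, went with no called member. edgeR called 0 of 8 members in either direction in the fit for CD11c (1 at an unadjusted p under 0.05) and 0 of 8 in the fit for Flt3 (0 at an unadjusted p under 0.05), against 0.764% and 1.04% of all genes tested. The sums differed by -0.11 ± 0.24 and by -0.03 ± 0.15 between the classes, and by 0.13 ± 0.13 and 0.27 ± 0.15 when the classes were drawn on raw antibody counts. These antibodies gave few counts, with medians of 5 and 4.5 in the high cells and of 2 and 1.5 in the others.

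**Figure D4:**
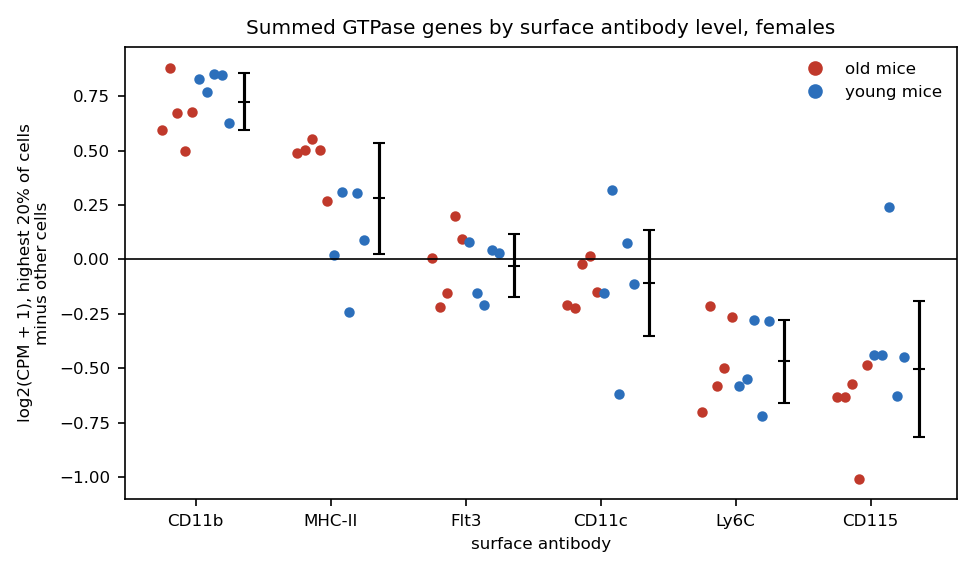
Log2(CPM + 1) of the summed members in cells in the highest 20% for each surface antibody less that in the other cells of the same female mouse (vertical axis), with 1 point per mouse (red old, blue young) and the mean and SD. Cells were ranked by each antibody relative to the mean of all the antibodies in the cell. All 10 mice lie above 0 for CD11b and below 0 for Ly6C, while CD11c and Flt3 scatter about 0.

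Genes of the type I interferon response also carry ISRE elements, so cells were split by whether they held a UMI of 14 type I response genes (such as Isg15, Ifit1, Ifit3 and Rsad2) after thinning to 2000 UMIs. The summed members were higher in cells with such a UMI in 10 of 10 females, by 1.28 ± 0.19 on the log2 scale, and in 9 of 9 males, by 1.73 ± 0.48 (old male 4 had too few cells). In females edgeR called all 6 members that passed the filter, against 22.7% of the 5747 genes tested: Gbp2 rose by 1.55 (SE 0.13, adjusted p = 1.86e-16), Igtp by 1.53 (SE 0.14, adjusted p = 4.74e-15), Ifi47 by 1.52 (SE 0.09, adjusted p = 4.49e-26), Irgm1 by 1.297 (SE 0.10, adjusted p = 1.10e-18), Gbp7 by 0.97 (SE 0.13, adjusted p = 5.86e-10) and Gbp3 by 0.72 (SE 0.10, adjusted p = 1.25e-08). In males Ifi47, the member that passed, rose by 1.53 (SE 0.22, adjusted p = 8.35e-06), against 12.2% of 1406 genes called higher.

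The members were high in both classes in the mice that stood apart. In old female 1 they were at 1125 CPM in cells with a type I response UMI and 582 CPM in cells without, against 430 to 549 CPM and 181 to 268 CPM in the other old females and 441 to 495 CPM and 162 to 196 CPM in the young ones. Its cells without a type I response UMI thus held more than the cells with one in each of the other 9 females. The type I response genes themselves summed to 352 CPM in old female 1, the lowest of the old females (376 to 616 CPM in the others, 310 to 447 CPM in young). In old male 2 the members were at 1116 and 471 CPM in the same classes, against 250 to 776 CPM and 93.5 to 221 CPM in the other males, and its type I response genes summed to 666 CPM, the highest of the males (113 to 617 CPM in the other old, 223 to 332 CPM in young).

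The receptor and kinases of the interferon-gamma pathway did not pass the test for age in females, and Irf1 downstream of them lay near its threshold. Ifngr1 was at -0.01 (SE 0.05) on the log2 scale, Ifngr2 at -0.05 (SE 0.05), Jak1 at 0.03 (SE 0.05) and Jak2 at 0.22 (SE 0.09), with edgeR adjusted p values of 0.944, 0.597, 0.819 and 0.186. Irf1 was at 0.56 (SE 0.15, adjusted p = 0.0503), from 35.3 to 69.3 CPM in old and from 26.9 to 32.7 CPM in young females. With 1 mouse left out Irf1 passed in 5 of 10 cases, and its edgeR adjusted p reached 0.115. It passed without old female 1 (adjusted p = 0.00716), with a smaller log2 fold change of 0.35. Socs1, the feedback inhibitor of the pathway, was at 0.90 (SE 0.31, adjusted p = 0.113). For Irf1 and Socs1 every old female was above every young one, as for 3.45% of the 10386 genes tested. In the list of 9 pathway genes 0 of the 8 tested were called (4 at an unadjusted p under 0.05, and 0 by DESeq2). In males Irf1 was at 1.07 (SE 0.30, adjusted p = 0.226).

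Among 13 other targets of interferon-gamma, 4 of the 10 tested rose in old females (2.4% of all genes tested did), with a median of 0.62 over the 10. All gene lists set against age were chosen with earlier results of these data known. Their counts and medians are thus a description and no test of the lists. Ciita, the master regulator of MHC-II genes, rose by 1.86 (SE 0.38, edgeR adjusted p = 0.0122), the peptide transporter Tap1 by 0.64 (SE 0.12, adjusted p = 0.00692), the immunoproteasome subunit Psmb9 by 0.55 (SE 0.11, adjusted p = 0.0101) and Nlrc5, the regulator of MHC-I genes, by 0.61 (SE 0.16, adjusted p = 0.0453). All 5 old females were above every young female for these 4 genes, as for 3.45% of the 10386 genes tested. The 4 genes were named because they were called in the same comparison, so this is no separate result. The calls of Ciita, Tap1 and Psmb9 held when any 1 of the 10 mice was left out, and that of Nlrc5 in 3 of 10 cases, with an adjusted p of 0.0540 without old female 1. Of the 14 type I response genes 2 rose, Ifi44 by 1.33 (SE 0.34, adjusted p = 0.0409) and Oasl2 by 0.44 (SE 0.11, adjusted p = 0.0410). These calls held in 2 and 3 of the 10 cases with 1 mouse left out. Without old female 1 both missed the threshold, with an adjusted p of 0.0622 and 0.0632. The log2 fold changes were then 1.34 and 0.44, so they did not fall. Old female 2 was the highest mouse for both (4.39 and 73.7 CPM). The median of the 14 was 0.01.

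Among 14 genes that work with the GTPases in inflammasomes and autophagy, 2 rose and 1 fell in old females, where 2.4% of all genes tested rose. The share of all genes that fell is not given, so falls are described without that comparison. The nucleic acid sensor Zbp1 rose by 0.56 (SE 0.11, adjusted p = 0.00785) and Casp4, the caspase that senses bacterial lipopolysaccharide, by 0.40 (SE 0.11, adjusted p = 0.0472), and the autophagy protein gene Map1lc3a fell by 0.35 (SE 0.08, adjusted p = 0.0255). The Zbp1 call held without any 1 mouse, the Casp4 call in 4 and the Map1lc3a call in 6 of the 10 cases. Of 21 further guanylate-binding and immunity-related GTPase genes, 8 could be tested, 0 rose and 9930111J21Rik2 fell by 0.33 (SE 0.06, adjusted p = 0.00623), from 87.1 to 113 CPM in old and from 126 to 137 CPM in young females, a call that held without any 1 mouse. In males none of the genes of these lists was called (edgeR over 5655 genes, as above). At an unadjusted p under 0.05 there were 3, 2, 1, 1 and 0 genes of the pathway, target, partner, further GTPase and type I lists. The count of all male genes at that p is given above. Some listed genes, among them Socs1, Ciita, Nlrc5 and Ifi44, did not pass the filter in males. The numbers tested per list in males are not given, so these counts are a description.

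Of the relatives of Iigp1 that were too low to test, 3 had most of their UMIs in old female 1. It held 409 of the 504 UMIs of Gm4951 in females, 52 of 58 of F830016B08Rik and 18 of 20 of Gm4841, and also 38 of the 80 UMIs of Gbp8. In males old male 2 held 5 of 12 UMIs of Gm4951, 10 of 37 of Gbp9 and 3 of 3 of Gbp2b. These counts were picked after they had been seen, and reads may be divided between Iigp1 and its close relatives. In females 9930111J21Rik2, Gbp9 and Gm5431 had the most UMIs in young female 4, the mouse with the most cells. Their levels there were 131, 3.83 and 5.11 CPM, against medians of 113, 4.44 and 4.07 CPM over the other females. The most UMIs thus need not mean the highest level.

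The genes whose level varied among the 20 mice most like the summed members, after the mean of each sex and age group had been removed, were sought among 5646 genes tested in both sexes. They were the proteasome activator Psme2 (Pearson r = 0.97), the immunoproteasome subunits Psmb8 (0.96), Psmb10 (0.95) and Psmb9 (0.94), and Fam26f (0.93). AW112010 was at rank 11 (0.89). Over the 18 mice other than old female 1 and old male 2 the values were 0.94, 0.90, 0.87, 0.87 and 0.88 for these 5 and 0.76 for AW112010. Each member was also set against the sum of the other members. Gbp2 stood closest to the others (0.97, and 0.94 over 18 mice). Over the 20 mice Ifi47 (0.89 and 0.84), Gbp3 (0.87 and 0.73), Iigp1 (0.86 and 0.84), Gbp5 (0.84 and 0.86) and Igtp (0.83 and 0.60) followed. Irgm1 (0.71 and 0.61) came next. Gbp4 (0.69 and 0.26), Irgm2 (0.64 and 0.32) and Gbp7 (0.47 and 0.10) stood farther away. For the members, the group means removed before taking the 18 mice still included old female 1 and old male 2. Their 18-mouse values thus still depend on those mice and are not comparable with those of the genes above. The points share a library within each sex and differ in depth, so these values are a description with no test.

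**Figure D5:**
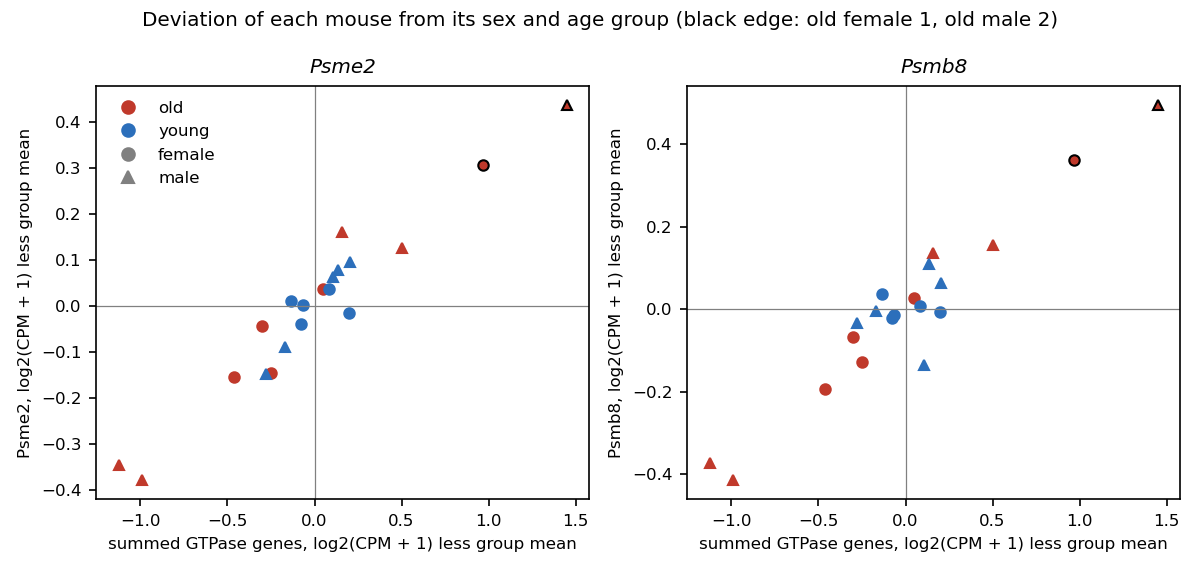
Summed members (horizontal axis) against Psme2 and Psmb8 (vertical axes) in the 20 mice, each as log2(CPM + 1) less the mean of its sex and age group, with circles for females and triangles for males. The mice lie along a rising line for both genes (r = 0.97 for Psme2 and 0.96 for Psmb8), and the points with a black edge, old female 1 and old male 2, lie at its upper end.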

How the data were processed

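Deposited files were gene by cell matrices of UMI counts, 1 for the male and 1 for the female pool, with hashtag and, for females, surface antibody counts. Per the study's methods the authors used STAR 2.5.1, mm10, an Ensembl annotation and Cell Ranger 4.0.0; the matrix headers name versions 7.0.0 (male) and 3.1.0 (female). These counts were not normalized.

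Cells with over 200 genes, under 5% mitochondrial UMIs and a leading hashtag count of at least 3 times the next were kept and given to the mouse of that hashtag by the authors' hashtag table. Of the 10433 female barcodes 9898 passed the first filters and 7624 were used, and of 1227 male barcodes 1226. No doublet caller was run on RNA: HTODemux (Seurat 5.3.0) would call 1071 female and 400 male cells in use doublets, and its singlets are an alternative. UMIs were summed per mouse, the replicate, and tested with edgeR 4.0.16 (R 4.3.3; TMM, filterByExpr, quasi-likelihood test, Benjamini-Hochberg adjustment over all genes tested, 0.05), with the mouse as a block for comparisons within mice. DESeq2 1.42.0 was an alternative. SEs are the log2 fold change over the root of F. Mice share a library within a sex, so p-values measure spread between mice of 1 run. Antibody, type I and AW112010-by-age fits over all genes were chosen after seeing the data.

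The members and all gene lists were chosen with earlier results of these data known, so no p is given for members by age or AW112010, nor for any sum over them. Named genes are the members, every listed gene called with age, 7 pathway genes (1 of them is not reported here) and the 5 genes most like the sum. The age test was checked on simulated counts with a fixed dispersion and no outlying mouse, so the check does not cover genes driven by a single mouse. Its requirement on the share of changed genes detected was set for females only. Precision is limited by UMIs: intervals and floors (3 counts) cover counting error only. The annotation used for positions may differ from that of the authors, and Itgam, whose symbol has several IDs, was left out of the monocyte markers.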

Additional observations from a re-analysis of the deposited data

Results flagged for a closer look

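Dixon's criterion for a single distant mouse was met in 9 of the 47 groups of 5 mice tested (critical value 0.71), where chance gives about 1 in 20. In old females the distant mouse was old female 1 in each case: Gbp2 (141 CPM), Gbp4 (12.8 CPM), Gbp5 (24.2 CPM), Igtp (47.3 CPM), Iigp1 (68.4 CPM), AW112010 (367 CPM) and the sum of the members (688 CPM). In old males it was old male 2, for Gbp2 (163 CPM) and Gbp4 (7.61 CPM, from 5 UMIs). These groups share mice and genes that vary together, so they are not 9 separate events, and since the levels also entered the choice of the genes the count is a description and no test.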

How the results depend on the processing

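The 9 members fitted in females and the 3 fitted in males (Gbp3, Irgm1 and Ifi47) kept a positive difference with age in all 141 female and 47 male values computed under the alternatives, from 0.15 to 5.05 and from 0.07 to 1.29 on the log2 scale. Members too low for a fit are not in that count. The members were chosen by their levels in old and young mice, so the count is a description and no test. Without old male 2 the log2 ratio of means was -0.83 for Gbp4, -0.53 for Gbp7 and -0.04 for Irgm2. It was 1.01 for Gbp2, 2.06 for Gbp5 and 0.58 for Igtp. In the AW112010 contrast 13 of 94 female values lay below 0, from -0.26 to 1.49, all of them for Irgm1 and Irgm2.

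Counts of called genes moved more. For age in females (490 genes) the count was 210 after thinning and ranged from 229 to 786 when 1 mouse was left out, with 786 without old female 4 and 229 to 300 without any 1 young female. For AW112010 in females (70 genes) it was 41 among HTODemux singlets, 609 after thinning, and 24 to 489 without 1 mouse. For age in males (0 genes) it was 3 without cells with a T or NK cell marker UMI, 98 with no filter on low counts, 22 with DESeq2, and 0 to 38 without 1 mouse (38 without old male 1, 24 without old male 4). For AW112010 in males (0 genes) it was 1 among HTODemux singlets, 46 after thinning and 0 to 5 without 1 mouse (1 without old male 4, 3 without young male 1, 5 without young male 4). The interaction of sex and age (2 genes) gave 1 with every cell given to its leading hashtag, 1 among HTODemux singlets, 1 without cells with a T or NK cell marker UMI, 0 after thinning and 0 to 3 without 1 mouse (0 without old male 1 or young male 2). MHC-II-high cells gave 612 genes without cells with a T or NK cell marker UMI. The cause was not tested. Summed over the members, the log2 difference for type I response UMIs in females was 1.09 without thinning, for Ly6C -0.67 and for CD11b 0.57 after thinning, and with raw antibody counts 0.27 for Flt3 and 0.13 for CD11c, in place of -0.03 and -0.11. The male difference between ages in the AW112010 contrast of the sum (0.14) ranged from -0.30 after thinning to 0.56 among HTODemux singlets. For old against young mice, no paired analysis was possible because mouse numbers only name hashtags. Males, with fewer cells, left 3 members measurable by age.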
